A study of Mus musculus with 12 samples.

Results

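The interferon response genes described here are 37 mouse genes that cells switch on after an interferon signal, taken by name and matched to every array probe whose transcript accession carries that name. Of the 37 genes, 35 were matched, by 43 probes, among 32496 genes on the array. Mx1 and Mx2 matched no accession and were not analysed here. All 35 matched genes had a probe well above background on the 3 arrays of at least 1 group and were tested, each by its probe with the highest mean signal.

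The study compared testis cells of mice lacking TAp73, a p53-family transcription factor made from the gene Trp73, with those of control mice. All 6 males were of strain C57BL/6J, and the testis of each was separated into Sertoli cells, the somatic nurse cells of the seminiferous tubule, and a pellet of germ cells. Each of the 12 arrays held 1 fraction of 1 mouse. The 4 groups of 3 mice are the TAp73 knockout and the control Sertoli fraction, and the TAp73 knockout and the control germ cell fraction. The knockout mice were 120 (4 months), 86 and 72 (both 8 months), and the control mice were 99 (5 months), 73 and 74 (both 8 months). The control source name says wildtype for all 3, but the sample titles call mouse 99 WT and mice 73 and 74 het. A knockout and a control mouse shared each of the 3 slides, both with their 2 fractions: mice 120 and 99 slide 1, mice 86 and 73 slide 2, and mice 72 and 74 slide 3.

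Type I interferons bind the receptor chains Ifnar1 and Ifnar2, whose kinases activate a complex with Stat2 and Irf9 that binds a promoter element called ISRE. Interferon gamma acts through Ifngr1 and Ifngr2 and another element, GAS. The induced genes sense foreign nucleic acid, block viral entry, translation and release, and raise antigen processing; in the testis, where germ cells carry antigens the immune system has not met, somatic cells are known to respond strongly to interferon.

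Levels are log2 signal relative to the 75th percentile of the same array, so that values of different genes are not compared. That percentile lay between 1355 and 5350 units of processed signal. The 1355 belonged to the Sertoli array of control mouse 74, and the next lowest value, 2863, to that of control mouse 73. Between 64.1% and 68.4% of probes were well above background on the Sertoli arrays, against 73.3% to 78.9% on the germ cell arrays. The targeted gene Trp73 was at -2.91, -2.82 and -2.72 in knockout Sertoli fractions, against -3.56, -4.01 and -2.13 in control ones, and at -1.91, -2.79 and -2.35 in knockout germ cells, against -4.28, -3.10 and -2.68 in control germ cells. Where its probe lies relative to the deleted part is not given in the sources used here, so these values do not check the labels. Its other 2 probes were higher in knockout mice by 3.29 and 1.26 in the Sertoli fraction and by 2.86 and 2.18 in germ cells, without passing the test. The fraction labelled Sertoli carried far more signal of fibroblast markers (5 of 5 higher than in germ cells, median log2 difference 6.67 in control mice) and of peritubular myoid markers (5 of 5, median 5.79), while 6 of 12 Sertoli cell markers were lower there and 4 higher (median -0.76). The Sertoli marker Fshr had no Sertoli array well above background. Spermatid markers (12 of 12) and spermatocyte markers (7 of 7) were lower there. Over all genes in control mice, 39.8% were called higher in the Sertoli fraction and 36.5% lower. In fractions that can hold several cell types, fewer cells of a type and less RNA per cell cannot be told apart.

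Promoters show which of the genes carry the elements that interferon signalling uses. RefSeq windows of build GRCm38.p6, from 250 bases before to 50 bases after the start, were at hand for 29 of the 35 tested genes; Oas2, Dhx58, Ifi27, Parp14, Usp18 and Zbp1 had none. The ISRE core (GAAA, any 2 bases, GAAA), read on both strands, was in 15 of the 29 (51.7%), against 3.99% of 27025 genes with a window. The GAS element TTCNNNGAA, the same on both strands, was in 9 of the 29 (31%), against 9.55% of all genes. Such a match is a description of letters and not a shown binding site. The 150 bases before the start are given below for genes with large fraction differences (Isg15, Bst2, Ifit1), for Oas3 and Ifitm2, whose knockout and control germ cell arrays did not overlap, and for Irf1 and Ifitm1, which were not called between the fractions of knockout mice. Capitals mark the ISRE core (the GAS element in Irf1); in Ifit1 it lies on the opposite strand and reads TTTC, 2 bases, TTTC.
Isg15, chr4:156200819-156200968, minus strand: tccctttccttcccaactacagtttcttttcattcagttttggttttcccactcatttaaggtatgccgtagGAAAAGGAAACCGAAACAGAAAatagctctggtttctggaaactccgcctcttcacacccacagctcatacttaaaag
Bst2, chr8:71537473-71537622, minus strand: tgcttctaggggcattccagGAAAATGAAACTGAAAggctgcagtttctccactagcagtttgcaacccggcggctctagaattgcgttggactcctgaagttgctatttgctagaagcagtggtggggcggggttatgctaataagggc
Ifit1, chr19:34640739-34640888, plus strand: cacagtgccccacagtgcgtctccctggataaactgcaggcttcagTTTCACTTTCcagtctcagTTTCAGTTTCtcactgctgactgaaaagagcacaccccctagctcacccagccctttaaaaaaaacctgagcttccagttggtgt
Oas3, chr5:120777660-120777809, minus strand: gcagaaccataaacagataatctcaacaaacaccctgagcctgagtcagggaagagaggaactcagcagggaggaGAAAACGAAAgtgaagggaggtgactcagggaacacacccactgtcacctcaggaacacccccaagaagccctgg
Ifitm2, chr7:140955962-140956111, minus strand: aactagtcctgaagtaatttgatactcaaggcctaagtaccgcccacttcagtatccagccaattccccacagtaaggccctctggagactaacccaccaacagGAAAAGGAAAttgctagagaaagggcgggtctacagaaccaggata
Irf1, chr11:53769864-53770013, plus strand: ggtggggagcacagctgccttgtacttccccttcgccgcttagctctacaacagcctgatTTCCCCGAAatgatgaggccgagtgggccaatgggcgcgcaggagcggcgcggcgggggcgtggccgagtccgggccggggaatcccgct
Ifitm1, chr7:140967926-140968075, plus strand: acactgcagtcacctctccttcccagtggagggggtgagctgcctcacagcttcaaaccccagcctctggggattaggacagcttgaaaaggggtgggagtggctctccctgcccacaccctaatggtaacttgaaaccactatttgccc
In Isg15, 3 overlapping copies began 78, 72 and 66 bases before the start and merge into a single run of capitals. Bst2 held 2 overlapping copies, which began 130 and 124 bases before the start; a GAS match that begins 136 bases before it shares letters with the first. Ifit1 held 2 separate copies, 104 and 85 bases before the start. Oas3 and Ifitm2 held 1 copy each, 75 and 46 bases before it, and the GAS match of Irf1 began 90 bases before its start. Ifitm1 held neither element in its whole window.

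The comparison of the Sertoli with the germ cell fraction asks in which fraction these genes have more signal. In knockout mice 32 of the 35 genes (91.4%) were higher in the Sertoli fraction by limma at an adjusted p of 0.05, against 37.9% of all 25035 genes tested, and 1 was lower, against 37.1% of all genes. In control mice 33 (94.3%) were higher, against 39.8% of all genes, and 1 was lower, against 36.5%. The median log2 difference of the 35 genes was 4.07 in knockout mice (0.09 over all genes) and 4.87 in control mice (0.21 over all genes). On every slide between 32 and 34 of the genes with a value on both arrays were higher in the Sertoli fraction of the same mouse, in each genotype. Over all genes these shares ran from 50.3% to 54.8%. Dhx58 was the gene that was lower in both genotypes, and Ifitm1 was not called in either.

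**Figure D1:**
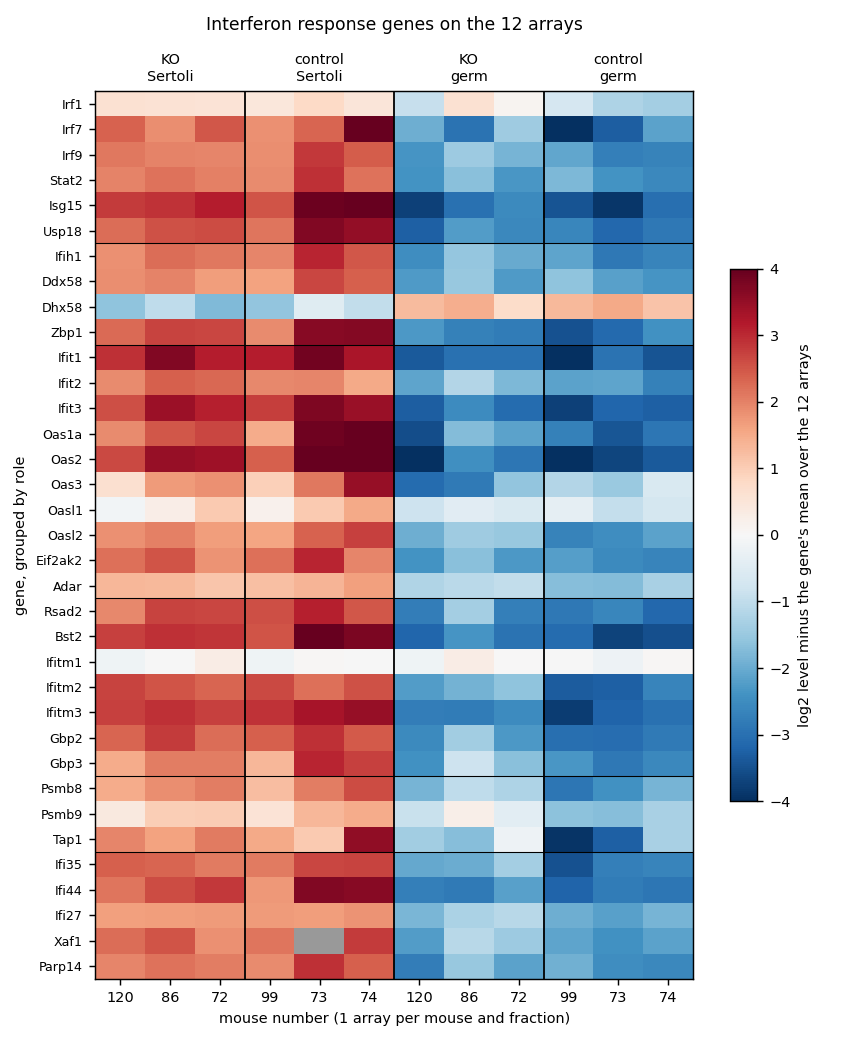
Log2 level of each of the 35 genes (rows, grouped by role, separated by lines) on each of the 12 arrays (columns, by mouse number), as the difference from the gene's own mean over the arrays; the grey cell is the missing value of Xaf1. Nearly all genes are red on the 6 Sertoli arrays and blue on the 6 germ cell arrays, Dhx58 runs the other way, and Ifitm1 stays near 0 on all 12.

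Among the effectors against viral RNA, which bind foreign RNA, degrade it or stop its translation, all 10 were higher in the Sertoli fraction in both genotypes (median log2 difference 4.09 in knockout mice, 4.75 in control mice). Oas2, an enzyme that makes the oligoadenylate signal for RNA decay, was at 0.87, 1.71 and 1.62 in the Sertoli fractions of knockout mice 120, 86 and 72, against -5.86, -4.24 and -4.66 in their germ cells. In control mice 99, 73 and 74 it was at 0.60, 2.74 and 2.37 in the Sertoli fraction, against -5.94, -5.44 and -5.14 in germ cells. The fractions were far apart in both genotypes, with a log2 difference of 6.32 ± 0.57 (SE) in knockout mice and 7.41 ± 0.57 in control mice (limma adjusted p 1.26e-06 and 3.03e-07).
Ifit1, which binds RNA lacking the host cap structure, was at 0.81, 1.61 and 1.03 in knockout Sertoli fractions, against -5.46, -5.10 and -5.10 in knockout germ cells. Control mice had it at 1.05, 1.75 and 1.15 in the Sertoli fraction, against -6.36, -5.05 and -5.57 in germ cells. The difference was 6.37 ± 0.34 in knockout mice, an 82.5-fold higher signal, and 6.98 ± 0.34 in control mice, 126-fold (adjusted p 1.88e-08 and 8.08e-09).
Ifit3, a partner of Ifit1, had 2.28, 3.11 and 2.80 in knockout Sertoli fractions, against -3.60, -2.84 and -3.38 in knockout germ cells. In control mice it had 2.45, 3.42 and 3.13 in the Sertoli fraction, against -4.03, -3.48 and -3.58 in germ cells. Its differences were 6.00 ± 0.32 in knockout and 6.70 ± 0.32 in control mice, and again no array of a fraction overlapped the other. Ifit3 and Oas1a have close copies (Ifit3b and Oas1g) from which a probe may also take signal; this was not tested. The smallest difference of this role was that of Oasl1, an oligoadenylate synthetase-like protein, with 1.04 in knockout and 1.58 in control mice.

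The regulators of the response were higher in the Sertoli fraction too, 5 of 6 in knockout mice and 6 of 6 in control mice. Isg15, a ubiquitin-like protein joined to other proteins during the response, had 4.34, 4.44 and 4.70 in knockout Sertoli fractions, against -2.19, -1.43 and -0.98 in knockout germ cells. In control mice it had 4.06, 5.47 and 5.91 in the Sertoli fraction, against -1.92, -2.34 and -1.48 in germ cells. All Sertoli arrays lay far above all germ cell arrays, by 6.03 ± 0.46 in knockout mice and 7.06 ± 0.46 in control mice (adjusted p 3.16e-07 and 7.66e-08).
Usp18, the protease that removes Isg15 and dampens the receptor, differed by 5.17 ± 0.40 in knockout and 5.99 ± 0.40 in control mice. Stat2 and Irf9, both parts of the complex that binds the ISRE, differed by 4.19 and 3.89 in knockout mice and by 4.57 and 4.86 in control mice. Irf7, the factor that amplifies interferon production, differed by 4.35 ± 0.79 in knockout mice and 6.30 ± 0.79 in control mice; in germ cells it was not well above background on the array of control mouse 99.
Irf1, a transcription factor of both interferon pathways, was the regulator with the smallest difference. It was at 2.06, 2.03 and 1.99 in knockout Sertoli fractions, against 0.53, 2.05 and 1.56 in knockout germ cells, where the arrays overlapped (0.65 ± 0.34, adjusted p 0.106). Control mice had 1.91, 2.25 and 1.94 in the Sertoli fraction, against 0.79, 0.22 and 0.09 in germ cells, and the difference of 1.67 ± 0.34 passed the test (adjusted p 0.000894; 0.168 without both mice titled het).

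Of the 4 nucleic acid sensors, 3 were higher in the Sertoli fraction in each genotype: Ifih1 (MDA5, a sensor of long double-stranded RNA), Ddx58 (RIG-I, a sensor of RNA with a 5′ triphosphate) and Zbp1 (a sensor of Z-form nucleic acid). Their differences ran between 3.87 and 5.15 in knockout mice and between 4.28 and 6.07 in control mice. The remaining sensor, Dhx58 (LGP2, the helicase that modulates the other 2), was the exception. It was at -1.54, -0.98 and -1.72 in knockout Sertoli fractions, against 1.32, 1.52 and 0.79 in knockout germ cells. Control mice had -1.53, -0.42 and -0.93 in the Sertoli fraction, against 1.35, 1.57 and 1.18 in germ cells. Every germ cell array was above every Sertoli array; the Sertoli signal was lower by -2.62 ± 0.31 in knockout mice and by -2.33 ± 0.31 in control mice on the log2 scale (adjusted p 1.38e-05 and 3.49e-05).

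Of the 7 effectors at membranes or against viral entry and assembly, 6 were higher in the Sertoli fraction in each genotype. Bst2 (tetherin, which holds budding virus at the cell surface) was at 4.32, 4.50 and 4.45 in knockout Sertoli fractions, against -1.59, -0.76 and -1.38 in knockout germ cells. In control mice it was at 4.08, 5.58 and 5.36 in the Sertoli fraction, against -1.51, -2.13 and -1.93 in germ cells. This gave a log2 difference of 5.67 ± 0.37 in knockout and 6.86 ± 0.37 in control mice (adjusted p 8.85e-08 and 1.66e-08).
The Ifitm proteins, small membrane proteins that hinder the fusion of virus with endosomes, were not all called. Ifitm3 differed by 5.50 ± 0.23 in knockout and 6.54 ± 0.23 in control mice, and Ifitm2 by 4.43 ± 0.24 and 5.55 ± 0.24. Ifitm1 was at -1.42, -1.24 and -0.94 in knockout Sertoli fractions, against -1.40, -0.93 and -1.22 in knockout germ cells. In control mice it was at -1.41, -1.20 and -1.25 in the Sertoli fraction, against -1.25, -1.43 and -1.19 in germ cells. All 12 arrays lay within the same narrow range, with a difference of -0.02 ± 0.19 in knockout mice and 0.00 ± 0.19 in control mice (adjusted p 0.928 and 0.996). With each array's median in place of the percentile the Ifitm1 difference was 0.83 and 0.67 and passed the test, where the median of all genes was 0.94 and 0.88.
Gbp2 and Gbp3, GTPases that attack the vacuoles of intracellular microbes, and Rsad2 (viperin, which makes a chain-terminating nucleotide) differed by 3.49 to 4.72 in knockout mice and by 4.95 to 5.60 in control mice. In control germ cells Rsad2 was well above background on 2 of 3 arrays.

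The 3 antigen processing genes were higher in the Sertoli fraction in both genotypes. Psmb8 and Psmb9, catalytic subunits of the immunoproteasome, differed by 3.17 ± 0.38 and 1.15 ± 0.33 in knockout mice and by 4.35 ± 0.38 and 2.66 ± 0.33 in control mice. Tap1, a chain of the peptide transporter, differed by 2.99 ± 0.75 in knockout and 4.87 ± 0.75 in control mice; in germ cells it was not well above background on the arrays of control mice 99 and 73. The other 5 induced genes (Ifi27, Ifi35, Ifi44, Xaf1 and Parp14) differed by 3.08 to 5.11 in knockout mice and by 3.73 to 5.99 in control mice. Xaf1 had no value on the Sertoli array of control mouse 73, where the spot was called an outlier by the scanner software, so its control Sertoli mean rests on 2 arrays.

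**Figure D2:**
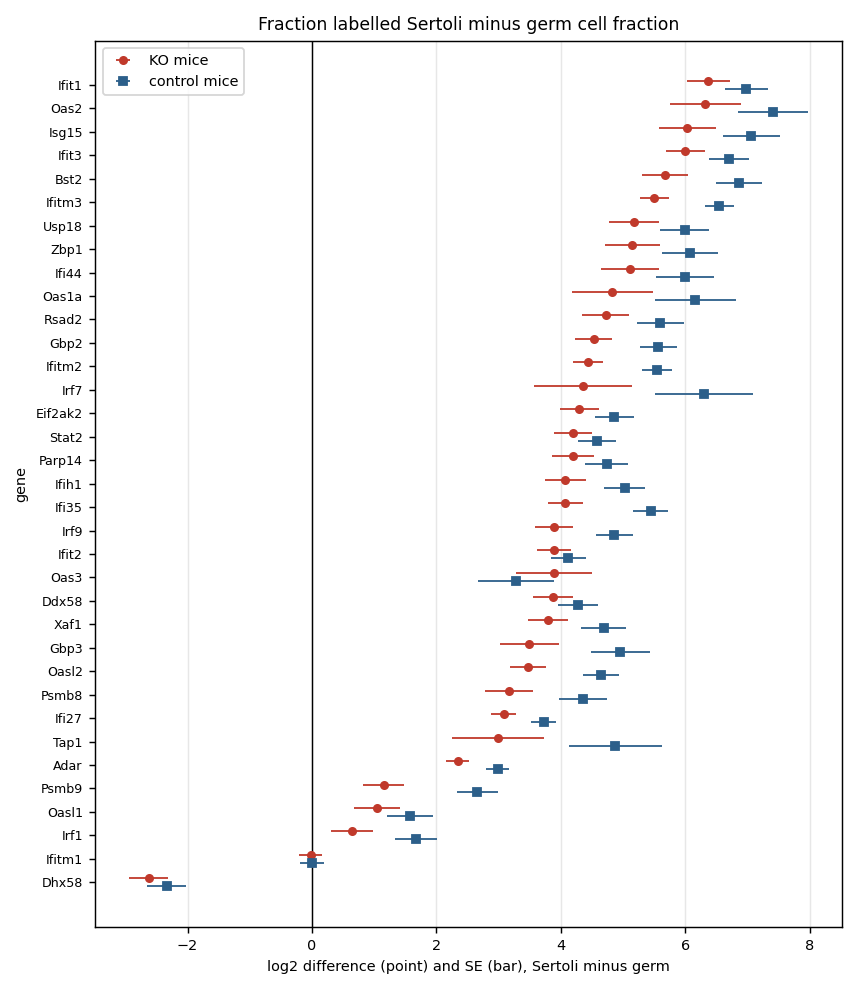
Log2 difference between the Sertoli and the germ cell fraction (points) with the standard error of the fit (bars) for each of the 35 genes, in knockout mice (red circles) and control mice (blue squares). The genes run from Ifit1 at 6.37 to Dhx58 at -2.62 in knockout mice, and Ifitm1 lies at 0 in both genotypes.

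The promoter elements can be set beside these differences. The 15 genes with the ISRE core had a median difference of 4.53 in knockout mice and 5.56 in control mice (range 3.27 to 7.06 in control mice), and the 14 genes with a window but without it had 3.32 and 4.50 (range 0.00 to 6.30 in control mice). The 9 genes with a GAS match had medians of 4.07 and 4.86, and the 20 without it 3.98 and 4.91. These are descriptions without a test.

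The rest of the pathway was read from further gene lists. For these counts, 37.9% of all genes were called higher and 37.1% lower in the Sertoli fraction of knockout mice. In control mice the shares were 39.8% and 36.5%. Of 6 receptor chains, 5 were higher in the Sertoli fraction in each genotype: Ifnar2 by 3.79 in knockout and 4.81 in control mice, Ifngr2 by 2.13 and 2.82, Il10rb (shared with the lambda interferon receptor) by 1.94 and 2.76, Ifngr1 by 2.07 and 2.50, and Ifnar1 by 1.08 and 1.15. Ifnlr1, the specific chain for lambda interferons, was not called (adjusted p 0.341 in knockout and 0.807 in control mice).
Of 11 signalling genes, 7 were higher in each genotype, among them the kinases Jak1 (2.80 in knockout, 3.28 in control mice) and Jak2 (2.96 and 3.39) and the factor Stat3 (3.03 and 3.97). The phosphatase Ptpn6 and the Stat inhibitor Pias1 were lower there, by -1.96 and -1.02 in knockout mice and by -1.39 and -1.22 in control mice.
Of 17 tested sensors and adaptors outside the 35 genes, 14 were higher in knockout and 15 in control mice, led by the lipopolysaccharide receptor Tlr4 (6.93 and 7.89), the factor Irf5 (4.91 and 5.84) and Sting1, the adaptor of cytosolic DNA sensing (5.16 and 5.83).
Of the interferons themselves, 10 of 19 listed genes were tested. Ifna2 and Ifna5 were higher in the Sertoli fraction in both genotypes, by 0.86 and 0.87 in knockout mice and by 0.67 and 0.79 in control mice, and Ifna1 in knockout mice by 0.63. These calls, 3 of 10 in knockout and 2 of 10 in control mice, were below the share over all genes (37.9% and 39.8%). The Ifna genes are near-identical copies, and their probes may share signal.
Of 47 further interferon-induced genes tested, 37 were higher and 5 lower in knockout mice, and 37 were higher and 4 lower in control mice. Ifi27l2a, a mitochondrial protein of the Ifi27 family, differed most (6.82 in knockout, 8.49 in control mice), and the chemokine Cxcl9 was lower in the Sertoli fraction (-4.85 and -4.47).

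Fibroblast and peritubular myoid markers were higher on the same Sertoli arrays. The summed level of the 5 fibroblast markers (log2 of the sum of their signals) ranged from 7.63 to 8.29 in knockout and from 7.74 to 8.94 in control Sertoli fractions, against 1.42 to 1.97 in knockout and 0.63 to 1.32 in control germ cells. The myoid sum ranged from 7.96 to 8.54 in knockout and 8.43 to 9.03 in control Sertoli fractions, against 3.36 to 3.45 in knockout and 2.63 to 2.99 in control germ cells. Their part in the interferon gene difference was not tested. Of 14 macrophage and leukocyte markers, 1 was higher and 10 lower in the Sertoli fraction of knockout mice (37.9% and 37.1% of all genes). In control mice 3 were higher and 7 lower there (39.8% and 36.5% of all genes). Ptprc, the common leukocyte antigen, had no control Sertoli array well above background.

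Knockout against control germ cells asks what differs in the germ cell pellet of mice lacking TAp73. Sertoli cell markers had signal in that pellet: all 12 tested were well above background on all 3 germ cell arrays of each genotype. So were 73.3% to 78.9% of all probes on single germ cell arrays, and Fshr was tested only through these arrays. How far the pellet is mixed was not tested. None of the 35 genes was called by limma, against 0.22% of all genes (54 higher and 1 lower); the smallest adjusted p was 0.101, for Ifitm2. At an unadjusted p under 0.05 there were 13 of the 35 (37.1%), against 7.35% of all genes. That count was 5 without knockout mouse 72, 6 without knockout mouse 86 and 7 without control mouse 73, and 7 with each array's median in place of the percentile. The estimated difference was above 0 for 33 of the 35 (94.3%), against 45.5% of all genes, and its median was 0.58, against -0.04 over all genes. The 3 knockout arrays lay above the 3 control arrays for 8 of the 35 (22.9%), against 6.57% of all genes, and below them for 1, Oas3 (2.86%, against 9.16%).

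The 6 genes with the smallest p were Ifitm2, Ifi35, Psmb9, Gbp2, Irf1 and Ifi27. Ifitm2 was at -0.96, -0.61 and -0.35 in germ cells of knockout mice 120, 86 and 72, against -2.06, -1.99 and -1.37 in those of control mice 99, 73 and 74. The groups did not overlap, and the knockout value was higher on each slide, by 1.09, 1.38 and 1.03. The difference was 1.17 ± 0.24 (SE), a 2.25-fold ratio, with an adjusted p of 0.101.
Ifi35, an interferon-induced leucine zipper protein, was at -3.28, -3.21 and -2.59 in knockout germ cells, against -4.70, -3.97 and -3.88 in control germ cells. The groups did not overlap (1.16 ± 0.28, adjusted p 0.183), and the difference within slides 1, 2 and 3 was 1.41, 0.76 and 1.29. Psmb9 was at -3.06, -1.94 and -2.59 in knockout germ cells, against -3.80, -3.87 and -3.46 in control germ cells. It did not overlap either (1.18 ± 0.33, adjusted p 0.264), with its largest within-slide difference, 1.93, on slide 2.
Gbp2 was at -2.94, -1.77 and -2.67 in knockout germ cells, against -3.41, -3.44 and -3.23 in control germ cells (0.90 ± 0.30, adjusted p 0.382). The control arrays were close together, and knockout mouse 86 was far above them. Irf1 was at 0.53, 2.05 and 1.56 in knockout germ cells, against 0.79, 0.22 and 0.09 in control germ cells (1.01 ± 0.34, adjusted p 0.389). Knockout mouse 120 lay among the controls, with a difference of -0.26 within slide 1. Ifi27 was at 1.35, 1.92 and 2.10 in knockout germ cells, against 1.24, 1.02 and 1.32 in control germ cells (0.60 ± 0.20, adjusted p 0.393), so that the groups were apart by little on slide 1 (0.11).

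Oas3, another oligoadenylate synthetase, ran the other way. Its signal was at -8.81, -8.55 and -7.31 in knockout germ cells, where none of the 3 arrays was well above background, against -6.90, -7.21 and -6.34 in control germ cells, where it was so on 2 of 3. Taking the dimmest signal well above background as the limit, the estimate was a signal at least 2.29-fold lower in knockout germ cells. It did not pass the test (adjusted p 0.651), and the highest knockout array (-7.31) lay close to the lowest control array (-7.21). Against that limit its signal in the knockout Sertoli fraction was at least 12.8-fold higher than in knockout germ cells (adjusted p 0.000136).

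By role, the median estimate was 1.18 for the 3 antigen processing genes, 0.63 for the 7 membrane effectors, 0.60 for the 5 other induced genes, 0.49 for the 6 regulators, 0.46 for the 10 effectors against viral RNA and 0.21 for the 4 sensors. Differences between roles were not tested. Within slides, the median of the 35 genes was 0.02 on slide 1, where 18 of 35 were higher in the knockout mouse. It was 0.92 on slide 2 and 0.55 on slide 3, with 31 of 35 higher on each of these. Over all genes the medians on slides 1, 2 and 3 were -0.08, -0.01 and -0.08, with 45.8%, 49.1% and 40.2% higher. Knockout mouse 120 was the lowest knockout germ cell array for 28 of the 35 genes, against 36.1% of all genes, and mouse 86 the highest for 24, against 40.7% of all genes. Both younger mice share slide 1, so age and slide cannot be told apart there.

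Most markers of somatic cells had estimates above 0 on the same knockout germ cell arrays, and 1 of them, Pdgfra, passed the test. Of 14 macrophage and leukocyte markers, 12 had a difference above 0 (median 0.88, none called), and their summed log2 level ranged from 3.29 to 3.40 in knockout germ cells and from 3.05 to 3.29 in control germ cells. All 14 were well above background on every knockout germ cell array, and 12 of 14 on every control one. On single germ cell arrays 73.3% to 78.9% of all probes were so, and a marker was tested only if so on all 3 arrays of some group. The difference was above 0 for 12 of 12 Sertoli cell markers (median 0.56), 4 of 4 Leydig cell markers (1.47), 5 of 5 myoid markers (0.80) and 4 of 5 fibroblast markers (0.84, with Pdgfra called at 1.25 and adjusted p 0.0355), for 6 of 6 endothelial markers (0.32) and for 4 of 6 lymphocyte and dendritic cell markers (0.16). For germ cell markers it was below 0 for 10 of 12 of spermatids (-0.25), 6 of 7 of spermatocytes (-0.08) and 5 of 6 of spermatogonia (-0.18). Their part in the interferon gene shift was not tested.
In the further lists no gene was called. The estimate was above 0 for 6 of 6 receptor chains (median 0.50), for 9 of 11 signalling genes (0.28), for 15 of 17 sensors and adaptors (0.59) and for 37 of 47 further induced genes (0.35), but for 1 of 10 interferons (-0.12). The smallest p values belonged to Il10rb (0.96, adjusted p 0.183) and Ifngr2 (0.60) among receptors, to Socs3, a feedback inhibitor (1.11, adjusted p 0.193), and Jak2 (0.52) in signalling, and to Irf8, a factor of myeloid cells (1.30, adjusted p 0.0932), among the sensors and adaptors.

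**Figure D3:**
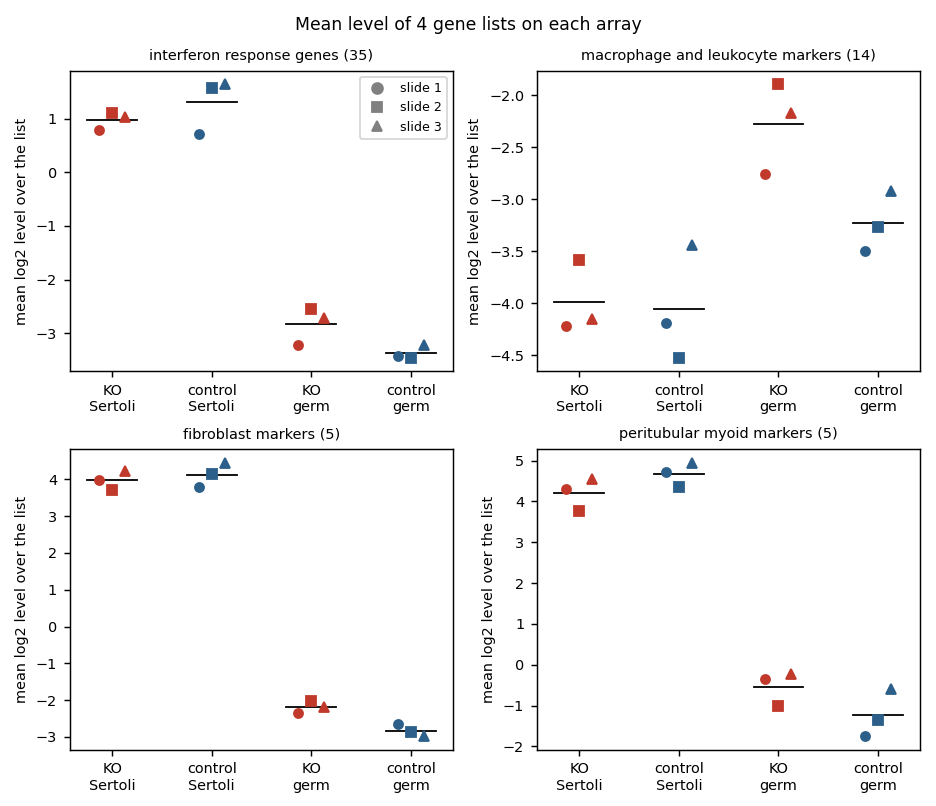
Mean log2 level over 4 gene lists (1 panel each, number of genes in brackets) on each array, for the knockout and control Sertoli fraction and the knockout and control germ cell fraction; the marker shape gives the slide and the line the mean of the group. In germ cells the mean of the interferon genes and that of the macrophage markers are both lowest among the knockouts on the array of mouse 120 (slide 1), although by the summed level that array is the highest of the 3 for the macrophage markers (3.40, against 3.34 and 3.29), and in the Sertoli fraction control mouse 99 (slide 1) lies below the other controls for the interferon genes.

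The same comparison in the Sertoli fraction gave no called gene, and none among all genes either (0%); at an unadjusted p under 0.05 there were 0 of the 35 genes, against 3.02% of all genes. The estimate was below 0 for 32 of the 35 (91.4%), against 65.2% of all genes, with a median of -0.34, against -0.10 over all genes. For none of the 35 did the 3 knockout arrays lie above the 3 control arrays, against 1.87% of all genes, or below them, against 4.85%. The 6 genes with the smallest p were Ifitm3, Usp18, Bst2, Dhx58, Isg15 and Ifit2, all with an adjusted p of 0.9996.
On the same arrays no marker of another cell type was called. For spermatid markers 11 of 12 were below 0 (median -1.09), and for 7 of the 12 the knockout arrays lay below the control arrays (4.85% of all genes); their summed log2 level ranged from -0.38 to -0.12 in knockout Sertoli fractions and from 0.13 to 1.94 in control ones. For myoid markers 5 of 5 were below 0 (median -0.40), while 11 of 12 Sertoli cell markers (median 0.19) and 9 of 14 macrophage and leukocyte markers (0.03) were above 0. So were 5 of 6 endothelial (0.37), 3 of 4 Leydig cell (0.26), 4 of 6 spermatogonia (0.37) and 4 of 7 spermatocyte markers (0.10). For fibroblast markers 2 of 5 were above 0 (-0.002), and for lymphocyte and dendritic cell markers 1 of 6 (-0.18). Their part in the interferon gene estimates was not tested.
Ifitm3 was at 5.46, 5.64 and 5.45 in knockout Sertoli fractions, against 5.62, 6.00 and 6.19 in control ones (-0.42 ± 0.23). Usp18 was at 0.95, 1.27 and 1.31 in knockout Sertoli fractions, against 0.84, 2.41 and 2.21 in control ones (-0.64 ± 0.40). In both genes 1 control array, that of mouse 99, lay within or below the knockout range.
The values of Bst2, Dhx58 and Isg15 on each Sertoli array, given above, gave -0.58 ± 0.37, -0.45 ± 0.31 and -0.65 ± 0.46. Ifit2, of the same family as Ifit1, was at -1.45, -0.95 and -1.03 in knockout Sertoli fractions, against -1.42, -1.38 and -1.82 in control ones (0.39 ± 0.28). It was among the 3 genes with an estimate above 0; the others were Ifitm1 and Ifitm2.

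The control Sertoli arrays disagreed among themselves more than any other group. The median SD over the genes was 0.24 in knockout and 0.55 in control Sertoli fractions (0.20 and 0.42 over all genes), and 0.45 in knockout and 0.35 in control germ cells (0.28 and 0.31 over all genes). Mouse 99, the control titled WT, was the lowest control Sertoli array for 28 of 34 genes with 3 values, against 39.1% of all genes. Both mice titled het lay above mouse 99 for 29 of the 35 genes (Xaf1 with 1 of these mice), against 39.1% of all genes, and above all 3 knockout arrays for 21, against 16.3%. Mouse 99 itself lay within the range of the 3 knockout arrays for 17 of the 35 genes (against 56.1% of all genes). The mean level of the 35 genes was 0.80 to 1.10 on the knockout Sertoli arrays, against 0.72 on that of mouse 99 and 1.58 and 1.64 on those of mice 73 and 74.
The sign of the Sertoli estimate rested on these 2 mice. Without both of them the median was 0.23 (0.03 over all genes), with 30 of 35 genes above 0. The lone control array was there assumed to vary like the other groups. Without mouse 99 the median was -0.60 (-0.17 over all genes), with 16 genes at an unadjusted p under 0.05 in limma and none called. Within slide 1 the median was 0.09 (0.01 over all genes), with 21 of 35 genes higher in the knockout mouse (51.2% of all genes). Within slide 2 it was -0.44 (-0.02 over all genes), with 4 of 34 higher (48.3% of all genes). Within slide 3 it was -0.55 (-0.24 over all genes), with 4 of 35 higher (33.9% of all genes). Titled genotype, age and slide cannot be told apart in these 3 control mice.

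**Figure D4:**
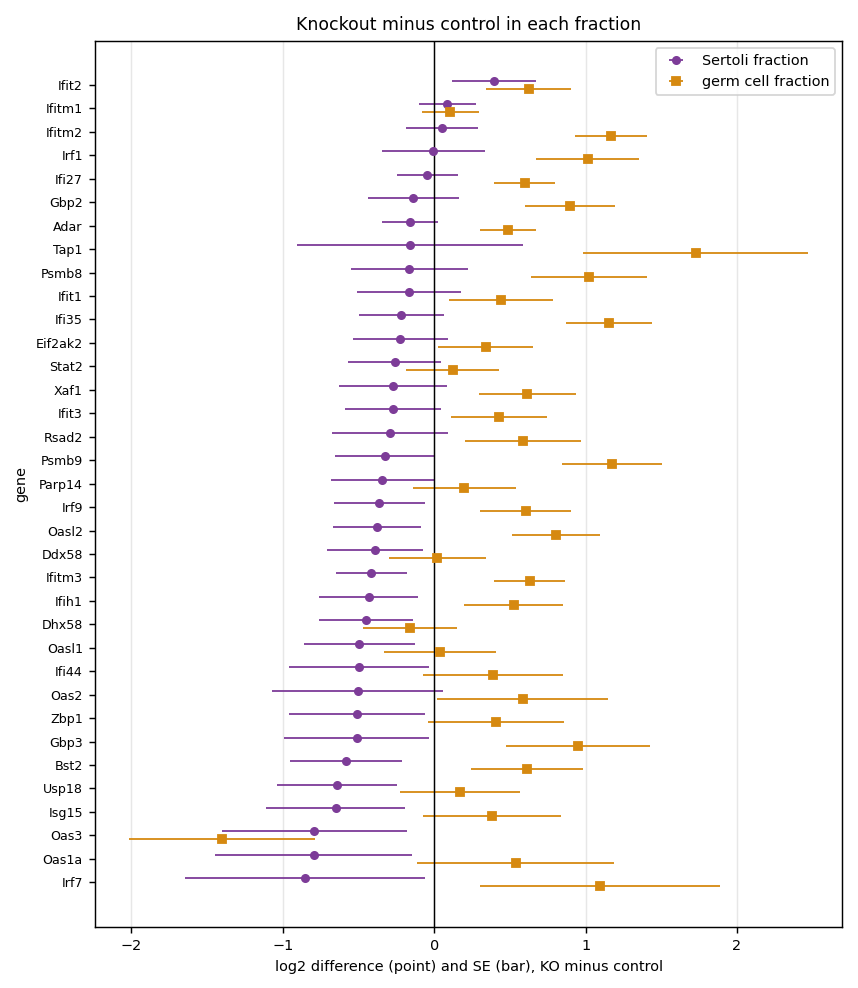
Log2 difference between knockout and control mice (points) with the standard error of the fit (bars) for each of the 35 genes, in the Sertoli fraction (purple circles) and in the germ cell fraction (orange squares). Most germ cell points lie right of 0 and most Sertoli points left of it, with Oas3 left of 0 in both; none passed the test.

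Whether the knockout difference itself differed between fractions was tested by the interaction, the Sertoli difference minus the germ cell difference. None of the 35 genes was called, against 0.00799% of all genes (2 genes), and 10 were at an unadjusted p under 0.05 (28.6%), against 4.58% of all genes. Without knockout mouse 72, knockout mouse 86 or control mouse 73 there were 3, 6 and 4, without control mouse 99 there were 19, and with the median scaling there were 5. The estimate was below 0 for 34 of the 35 (97.1%), against 60.5% of all genes, with a median of -0.92, against -0.09 over all genes. Both knockout comparisons enter this estimate, so it is not independent of them. The 6 genes with the smallest p were Ifi35 (-1.37 ± 0.40, adjusted p 0.743), Ifitm2 (-1.12 ± 0.34), Psmb9 (-1.50 ± 0.47), Ifitm3 (-1.05 ± 0.33), Oasl2 (-1.18 ± 0.41) and Adar (-0.65 ± 0.26), the last 5 with adjusted p between 0.799 and 0.999.
Ifi35 was at 1.18, 1.10 and 0.85 in knockout Sertoli fractions, against 0.85, 1.45 and 1.47 in control ones, so that the groups overlapped there, unlike in germ cells. Ifitm2 had 3.97, 3.79 and 3.61 in knockout Sertoli fractions, against 3.91, 3.48 and 3.83 in control ones, again overlapping. Psmb9 had -1.79, -1.20 and -1.15 in knockout Sertoli fractions, against -1.62, -0.84 and -0.70 in control ones. For these 3 genes the interaction estimate was below 0 on each of the 3 slides.
Ifitm3 was at -0.05, -0.10 and 0.21 in knockout germ cells, against -1.08, -0.49 and -0.26 in control germ cells, which did not overlap, and its Sertoli values were given above. Oasl2, an oligoadenylate synthetase-like protein, was at 2.16, 2.34 and 1.996 in knockout Sertoli fractions, against 1.91, 2.68 and 3.05 in control ones. In germ cells it was at -1.62, -1.08 and -1.19 in knockout mice, against -2.34, -2.16 and -1.81 in control mice, without overlap. Adar, which edits adenosine in double-stranded RNA, was at 0.79, 0.75 and 0.58 in knockout Sertoli fractions, against 0.67, 0.83 and 1.10 in control ones, and at -1.74, -1.62 and -1.54 in knockout germ cells, against -2.25, -2.27 and -1.84 in control germ cells. Its germ cell groups did not overlap and its Sertoli groups did. Without both mice titled het, 13 of the 35 interaction estimates were above 0 and the median was -0.22, with none called.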

How the data were processed

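The deposited scanner files give intensity per spot, read with Agilent Feature Extraction 10.7.3.1 on a grid of build mm9, per the file headers. The intensity used, the processed signal, was background-subtracted and detrended by that software and not normalised between arrays, per the file headers. The authors' deposited table holds log2 values in the same order as the processed signal (lowest Spearman rho 0.9999 across probes); the submitters' processing notes name limma, and its version is not given in the sources used here. 1377 control spots per array and outlier spots were left out and spots of a probe averaged. The log2 processed signal minus the array's 75th percentile was used. Accessions were named through RefSeq (GRCm38.p6), which named 26055 of 39429 probes. A probe was kept if well above background on all 3 arrays of a group (30538 probes), and the probe with the highest mean signal stood for its gene (25035 genes). Group means over 12 arrays were tested with limma 3.58.1 (R 4.3.3), with Benjamini-Hochberg adjustment over all genes and a threshold of 0.05. The limma model was tried on simulated arrays for the germ cell comparison only, without the percentile scaling or the choice of a probe per gene. No member probe was saturated, and with 3 mice a group the precision is limited by their number.

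The genes, lists and roles were chosen with earlier results of these data known. Genes given with every array value are the 6 with the smallest p in each comparison that called none and the 5 with the largest called difference in each direction between fractions; Ifitm1 and Oas3 were added after their values were seen. The numbers in the titles tie the 2 fractions to 1 animal; the deviations of its 2 arrays from their group means correlated across genes at 0.20 (mouse 72), -0.12 (73), 0.46 (74), 0.28 (86), -0.16 (99) and 0.26 (120). Alternatives were another background correction, scaling, filter or probe choice, the authors' table, slide or mouse as a block, and leaving out mice.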

Additional observations from a re-analysis of the deposited data

How the results depend on the processing

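In 19 alternatives for each comparison, no interferon response gene was called between knockout and control in either fraction or in the interaction. Between fractions, 28 to 35 genes were called in knockout mice and 29 to 35 in control mice, the lowest where the filter on dim probes left 30 genes. Leaving out 1 mouse at a time gave 31 to 33 called in knockout mice and 34 in control mice, and 0 in the other comparisons. With the mouse as a replicate block the counts stayed at 32 higher and 1 lower in knockout mice, 33 higher and 1 lower in control mice, and 0 elsewhere, so pairing changed no count of called genes. The interaction count at an unadjusted p under 0.05 in limma went from 10 to 13 with a random block and 12 with a fixed block. The germ cell median ranged from 0.30 (normexp with quantile normalisation) to 0.83 (mice of 8 months), and was 0.37 without knockout mouse 86. The Sertoli median ranged from -0.60 to 0.23, turning positive without both mice titled het.

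Without both mice titled het, Irf1 (adjusted p 0.168), Oas3 (0.0579) and Oasl1 (0.407) lost their call between fractions in control mice. In knockout mice Oasl1 lost it without mouse 86 (0.056) or 72 (0.156) and Psmb9 without mouse 72 (0.0704), while Irf1 was called without mouse 86 (0.04) and with the median of each array in place of the percentile (0.00579). That scaling put the median of all genes at 0.94 in knockout and 0.88 in control mice between fractions, and Ifitm1 was then called higher in both; the cause was not tested. With 1 mismatch allowed, the ISRE core was in 25 of the 29 windows, against 38.9% of all genes.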

Other observations

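Genes of antigen presentation, many of which interferon gamma induces, ran both ways between the fractions. Of 15 listed genes, 8 were higher and 4 lower in the Sertoli fraction of knockout mice (limma; 37.9% and 37.1% of all genes), and 9 higher and 4 lower in that of control mice (39.8% and 36.5%). B2m, the light chain of MHC class I, was higher by 3.81 in knockout and 4.99 in control mice, and Tap2, the partner of Tap1 in the peptide transporter, by 3.04 and 4.46. The MHC class II chain H2-Aa and its chaperone Cd74 were lower there, by -4.62 and -4.98 in knockout mice and by -2.62 and -3.33 in control mice. Between knockout and control germ cells no gene of this list was called, and the smallest adjusted p was 0.116, for Tap2 (1.20). Its estimate was -0.22 in the Sertoli fraction, and the interaction was -1.43 (adjusted p 0.564).

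Of the 35 interferon response genes, 8 had more than 1 probe. The second probe of Irf1 had no array well above background. For the other 7 (Adar, Ddx58, Ifih1, Isg15, Oas1a, Xaf1 and Zbp1) both probes were higher in the Sertoli fraction in knockout and in control mice. Between knockout and control germ cells the 2 probes of Xaf1 had estimates of opposite sign, 0.62 for the brighter and -0.36 for the dimmer, and neither was called. Ddx58 was at 0.02 by its brighter probe and 0.76 by the other in the same comparison, where neither passed the test.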
